A study of Mus musculus with 12 samples.

Results

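Zmynd19, Aloxe3, Glod5, Gsdma2, Prelid2, 0610040J01Rik, 2610002J02Rik and Rogdi are 8 mouse genes that were chosen by a measured value: the log2 intensity difference between chitosan and mock mice, which differed between the stomach and the brain. Chitosan is a polysaccharide of glucosamine. The array measures them with 10 probes out of 29922, which carry 16675 gene symbols in all. Zmynd19 and Prelid2 have 2 probes each, and the other genes have 1. None of the 8 is in the lists of gastric gland markers used here. The mice were male PPRE transgenic animals of the FVB strain, 6 to 8 weeks old. All of them carried luciferase under PPAR response elements (PPRE) joined to a viral thymidine kinase promoter, so the transgene reports PPAR activity and was present in the controls too. Mock mice were given saline and chitosan mice 0.2 g/kg chitosan oligosaccharide lactate under the skin, and RNA was taken on day 3. The 4 groups (mock brain, chitosan brain, mock stomach and chitosan stomach) hold 3 arrays each, 1 for each mouse, and the labels do not say which part of either organ was used.

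The 8 genes come from unrelated families. Aloxe3 encodes the epidermal lipoxygenase eLOX3, which isomerizes the hydroperoxides made by the 12R-lipoxygenase Alox12b in the lipid barrier of keratinized squamous epithelium; the forestomach of the mouse is lined by such an epithelium. Gsdma2 is a gasdermin, a family whose members can open pores in membranes once they are cleaved. Glod5 has a glyoxalase domain, and glyoxalases remove reactive aldehydes such as methylglyoxal. Prelid2 has the PRELI domain that carries phospholipids between the mitochondrial membranes in its relatives. Zmynd19 is a MYND zinc finger protein that binds the tail of the melanin-concentrating hormone receptor. In humans, ROGDI is mutated in a syndrome of epilepsy and defective tooth enamel, and its product is counted among the RAVE proteins that assemble the vacuolar proton pump. 2610002J02Rik is listed by RefSeq as Faap20, whose human product belongs to the Fanconi anemia core complex of DNA repair. 0610040J01Rik is a protein-coding gene without a descriptive name.

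The values are normalized Cy5 intensities on a linear scale. The lowest intensity on an array was 34.3 to 35.3 and the median 47.0 to 47.8, and only 9.52% to 10.6% of the probes lay above 2 times the lowest value, which is used here as a mark of clear signal. Values near 47 are therefore close to the background, and a log2 difference of a dim probe understates the change. The organ labels were borne out by marker genes: the summed intensity of 6 neuron markers was 5506 to 7738 on brain arrays and 340 to 458 on stomach arrays, while that of 12 markers of the squamous forestomach was 576 to 664 and 26313 to 30293. Snap25 of the synapse had a mean of 4960 in the mock brain and 80.5 in the mock stomach. The 7 measured markers of pancreatic acinar cells and the brain-type markers Gfap and Aqp4 of astrocytes did not reach 2 times the lowest value on any array. Arrays of the same group correlated at 0.796 to 0.951. An array held between 268 and 947 different intensity values (308 to 382 for mock brain, 447 to 947 for chitosan brain, 579 to 884 for mock stomach, 268 to 651 for chitosan stomach), and the part of this in the results was not tested.

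RefSeq promoter sequences (GRCm38.p6) were found for 4 of the 8 genes, and the 250 bases before the start used in the promoter table are shown because these 4 cover the 3 kinds of response: Zmynd19 was higher in the chitosan stomach, 0610040J01Rik was lower there, and 2610002J02Rik and Rogdi were higher in the chitosan brain. They are read 5′ to 3′ on the strand of the gene, at chr2:24949527-24949776 (plus strand), chr5:63812245-63812494 (plus), chr4:155249716-155249965 (plus) and chr16:5013554-5013803 (minus). For 0610040J01Rik, 2610002J02Rik and Rogdi this start differs from the outermost start of the RefSeq gene, so the stretch overlaps the annotated gene. Capitals mark CCAAT and GGGCGG on either strand.
Zmynd19: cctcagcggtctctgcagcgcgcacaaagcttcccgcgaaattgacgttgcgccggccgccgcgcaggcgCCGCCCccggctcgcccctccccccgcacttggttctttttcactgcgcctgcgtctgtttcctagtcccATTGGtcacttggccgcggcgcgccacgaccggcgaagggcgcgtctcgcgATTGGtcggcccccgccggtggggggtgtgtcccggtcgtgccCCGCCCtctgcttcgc
0610040J01Rik: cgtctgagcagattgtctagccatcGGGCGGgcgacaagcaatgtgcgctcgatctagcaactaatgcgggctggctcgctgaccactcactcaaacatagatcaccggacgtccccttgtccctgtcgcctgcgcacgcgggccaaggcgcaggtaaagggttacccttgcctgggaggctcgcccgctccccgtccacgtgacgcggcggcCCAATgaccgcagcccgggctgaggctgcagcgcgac
2610002J02Rik: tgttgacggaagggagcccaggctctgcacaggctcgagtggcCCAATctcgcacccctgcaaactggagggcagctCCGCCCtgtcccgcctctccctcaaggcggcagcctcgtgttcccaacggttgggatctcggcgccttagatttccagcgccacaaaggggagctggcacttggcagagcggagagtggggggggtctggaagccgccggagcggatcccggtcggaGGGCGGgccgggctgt
Rogdi: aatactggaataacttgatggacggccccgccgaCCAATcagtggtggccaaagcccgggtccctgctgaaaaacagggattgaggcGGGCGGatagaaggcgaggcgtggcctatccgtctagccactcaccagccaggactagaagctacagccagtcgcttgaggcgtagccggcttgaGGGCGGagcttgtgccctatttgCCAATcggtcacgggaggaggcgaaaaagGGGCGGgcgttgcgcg
Each of the 4 stretches holds at least 1 CCAAT (the CCAAT box) and at least 1 GGGCGG (the GC box). Among 32851 promoters of the same length, 33.8% hold CCAAT, 32.7% hold GGGCGG and 11% hold both. Rogdi has 3 GC boxes, and the one nearest to the start begins 16 bases before it, as it does in Zmynd19 and 2610002J02Rik. The half-site AGGTCA of nuclear receptors (in 14% of all promoters), its direct repeat with 1 base between the copies, to which PPAR binds with the retinoid X receptor (0.0335%), and TATAAA (12.4%) were not found in these 4 windows on either strand. AGGTCA is contained in the direct repeat. These matches describe letters and not binding.

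The first question was how the 8 genes differ between mock and chitosan mice in each organ. This contrast chose the genes, so its values are given as a description without a test. By their brightest probe, 2 genes (Zmynd19 and Aloxe3) were higher in the chitosan stomach, 5 (Glod5, Gsdma2, 0610040J01Rik, 2610002J02Rik and Prelid2) were lower there with no overlap between the groups, and Rogdi differed mainly in the brain. Of the 10 probes, 2 had every chitosan stomach array above every mock stomach array and 5 had every one below, where 6.86% and 5.37% of all 29922 probes did so. In the brain 3 of the 10 probes had every chitosan array above every mock array and 0 had every one below, beside 5% and 6.79% of all probes. In either direction, 12.2% of all probes did not overlap in the stomach and 11.8% in the brain. At a 2-fold change on the log2 scale, 1 of the 10 probes was higher in the chitosan stomach (0.127% of all probes), 4 were lower there (0.394%) and 0 differed in the brain (0.368%). Nothing is read from these counts, since the contrast chose the genes.

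**Figure D1:**
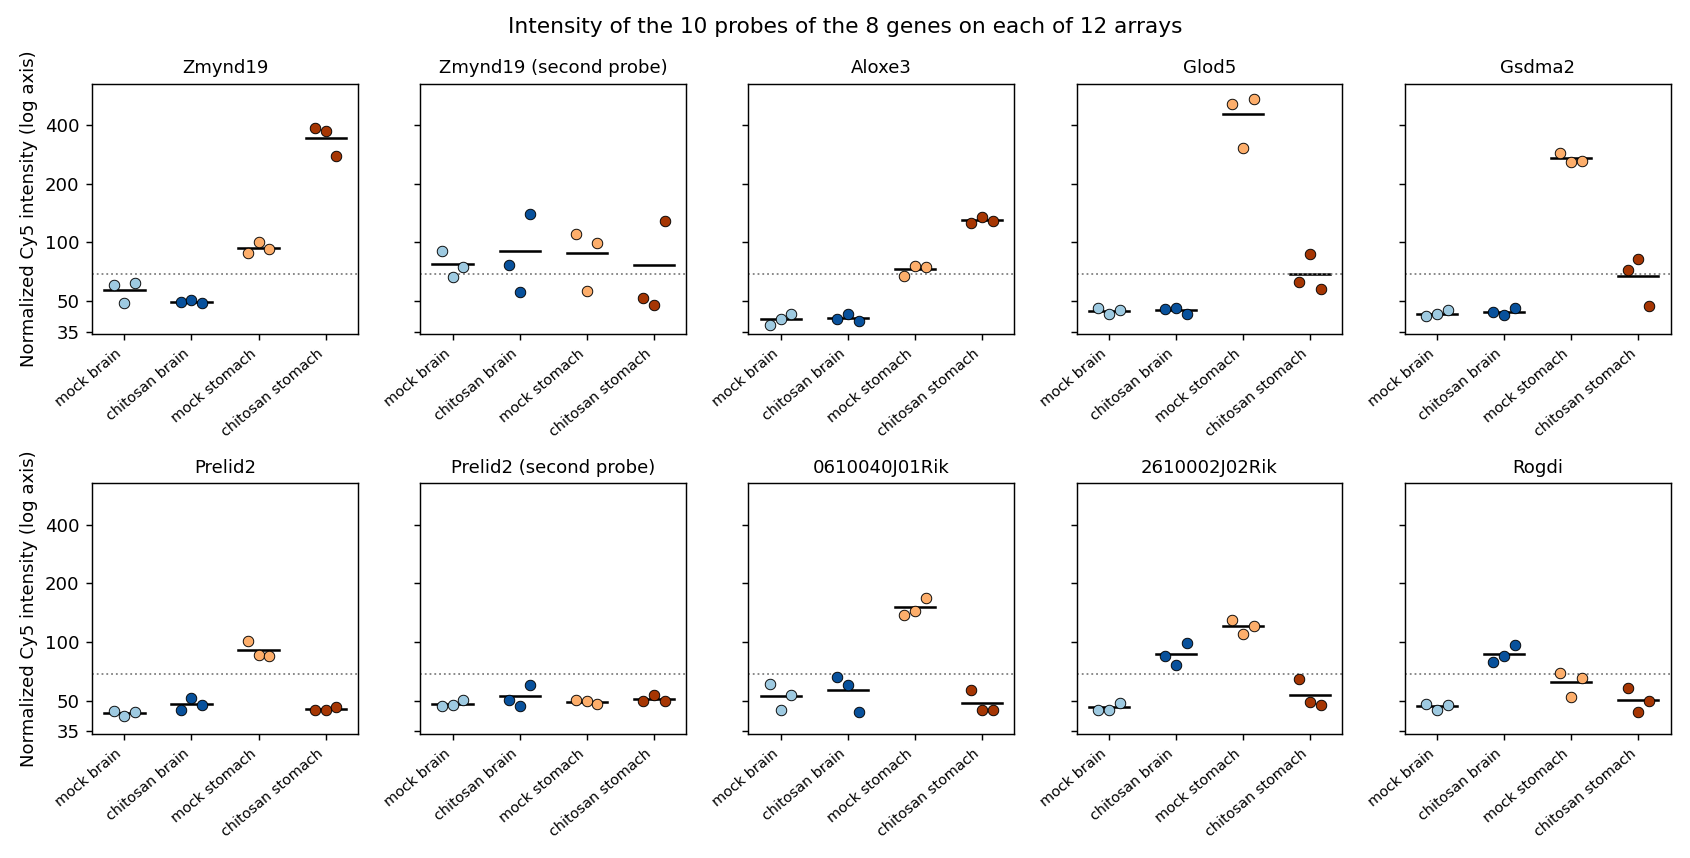
Normalized Cy5 intensity (log axis) of the 10 probes of the 8 genes; each point is 1 array, bars are means of 3 arrays, and the dotted line is 2 times the mean of the lowest intensities of the arrays. By the brightest probe, Zmynd19 and Aloxe3 are highest in the chitosan stomach, Glod5, Gsdma2, Prelid2, 0610040J01Rik and 2610002J02Rik are highest in the mock stomach, and Rogdi is highest in the chitosan brain; the groups of both second probes overlap.

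Zmynd19, by its brightest probe, had the largest increase of the 8 genes. Its brightest probe had intensities of 88.8, 100 and 93.0 on the mock stomach arrays and 384, 370 and 279 on the chitosan stomach arrays. Every chitosan array thus lay more than 2 times above every mock array. The means were 94.0 ± 5.77 (SD, n = 3) and 344 ± 57.2 (SD, n = 3), a ratio of 3.66 and a log2 difference of 1.86 (SE 0.15). In the brain the probe had 60.8, 48.8 and 61.8 in mock mice and 49.6, 50.6 and 48.9 with chitosan. These overlap and stay under 2 times the lowest intensity of their arrays (log2 difference -0.19, SE 0.11).

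The second probe of Zmynd19 did not follow the first. It had 111, 56.3 and 99.1 on the mock stomach arrays and 52.2, 47.9 and 129 on the chitosan stomach arrays. The groups overlap, and the log2 difference was -0.31 (SE 0.55). In the brain this probe had means of 77.4 ± 12.3 with mock and 90.5 ± 43.4 with chitosan, and these groups overlap. Both means are above those of the first probe there (57.1 and 49.7), and in the mock stomach the means were close (88.8 against 94.0). The first probe thus counts as the brightest through the chitosan stomach arrays, the group in which it was high. Over the 12 arrays the log2 intensities of both probes correlated at -0.26, a description over arrays that share organs and treatment. The position of either probe on the transcript is unknown here.

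Aloxe3 was the other gene with more signal in the chitosan stomach. Its intensities were 67.2, 76.1 and 75.3 on the mock stomach arrays and 126, 135 and 129 on the chitosan stomach arrays. The 3 chitosan values lie close together and above all mock values. The means were 72.9 ± 4.90 and 130 ± 4.84 (SD, n = 3 each), a ratio of 1.79 and a log2 difference of 0.84 (SE 0.06), the smallest SE among the 8 genes in the stomach. In the brain the lipoxygenase gene had 37.7 to 43.2 on the 6 arrays, which is below the array median, with a log2 difference of 0.03 (SE 0.07).

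Glod5 had the largest decrease of the 8 genes. The glyoxalase-domain gene had 509, 305 and 541 on the mock stomach arrays and 62.8, 87.6 and 57.7 on the chitosan stomach arrays. Array 2 was the lowest of the mock arrays and the highest of the chitosan arrays, and the groups stay apart. The means were 452 ± 128 and 69.4 ± 15.99 (SD, n = 3 each), a ratio of 6.51 and a log2 difference of -2.68 (SE 0.32). By size of the log2 difference it ranked 5 of 29922 probes in the stomach. In the brain Glod5 was at background, with 42.9 to 46.4 on the 6 arrays.

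Gsdma2 gave a like picture. Its intensities were 287, 259 and 262 on the mock stomach arrays and 72.1, 82.6 and 47.5 on the chitosan stomach arrays. The gasdermin gene thus varied little among mock mice, and on chitosan array 3 it had an intensity like that of the array median. The means were 269 ± 15.5 and 67.4 ± 18.01 (SD, n = 3 each), a ratio of 3.99 and a log2 difference of -2.03 (SE 0.24). All brain arrays had 42.0 to 46.0.

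0610040J01Rik, the gene without a descriptive name, had 138, 145 and 169 on the mock stomach arrays and 56.7, 45.0 and 45.1 on the chitosan stomach arrays. With chitosan it came down to the range of the brain arrays, which had 44.0 to 66.4. The stomach means were 151 ± 16.3 and 48.9 ± 6.71 (SD, n = 3 each), a ratio of 3.08 and a log2 difference of -1.63 (SE 0.14). The brain means were 53.1 ± 7.92 in mock and 57.0 ± 11.6 in chitosan mice, and these groups overlap.

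Prelid2 is the PRELI domain gene. Its brightest probe had 102, 86.4 and 84.6 on the mock stomach arrays and 44.8, 45.0 and 46.4 on the chitosan stomach arrays. The chitosan values are below the array median. The means were 90.9 ± 9.38 and 45.4 ± 0.899 (SD, n = 3 each), a ratio of 2.002 and a log2 difference of -0.997 (SE 0.09). In the brain all 3 chitosan arrays (44.9, 51.8 and 47.8) lay above the mock arrays (44.2, 41.8 and 44.0), but the whole range is within background intensities. The second probe of Prelid2 had 48.2 to 53.7 on the 6 stomach arrays and 47.3 to 60.7 on the 6 brain arrays, so that it showed no clear signal anywhere and can neither repeat nor contradict the first. The first probe had the higher mean only in the mock stomach (90.9 against 49.7), and it counts as the brightest through that group.

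2610002J02Rik, the Faap20 gene, differed in both organs and in opposite directions. It had 130, 111 and 121 on the mock stomach arrays and 65.1, 49.3 and 47.5 on the chitosan stomach arrays, a log2 difference of -1.17 (SE 0.16). In the brain it had 45.2, 45.0 and 48.9 in mock mice and 85.5, 76.6 and 99.5 in chitosan mice, a log2 difference of 0.90 (SE 0.12). In neither organ did the groups overlap. The mean was thus 2.24 times lower with chitosan in the stomach and 1.88 times higher in the brain.

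Rogdi differed more in the brain than in the stomach, so that a stomach-specific label does not hold for it. The RAVE gene had 48.6, 45.0 and 47.8 on the mock brain arrays and 79.7, 85.5 and 97.3 on the chitosan brain arrays, with means of 47.1 ± 1.88 and 87.5 ± 9.002 (SD, n = 3 each) and a log2 difference of 0.89 (SE 0.09). In the stomach it had 69.7, 52.4 and 65.8 in mock and 58.0, 43.9 and 50.2 in chitosan mice. These groups overlap, and the log2 difference was -0.30 (SE 0.17). By size of the log2 difference, Rogdi ranked 149 of 29922 probes for the brain but 2102 for the stomach, so that its place in the set rests on the brain.

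**Figure D2:**
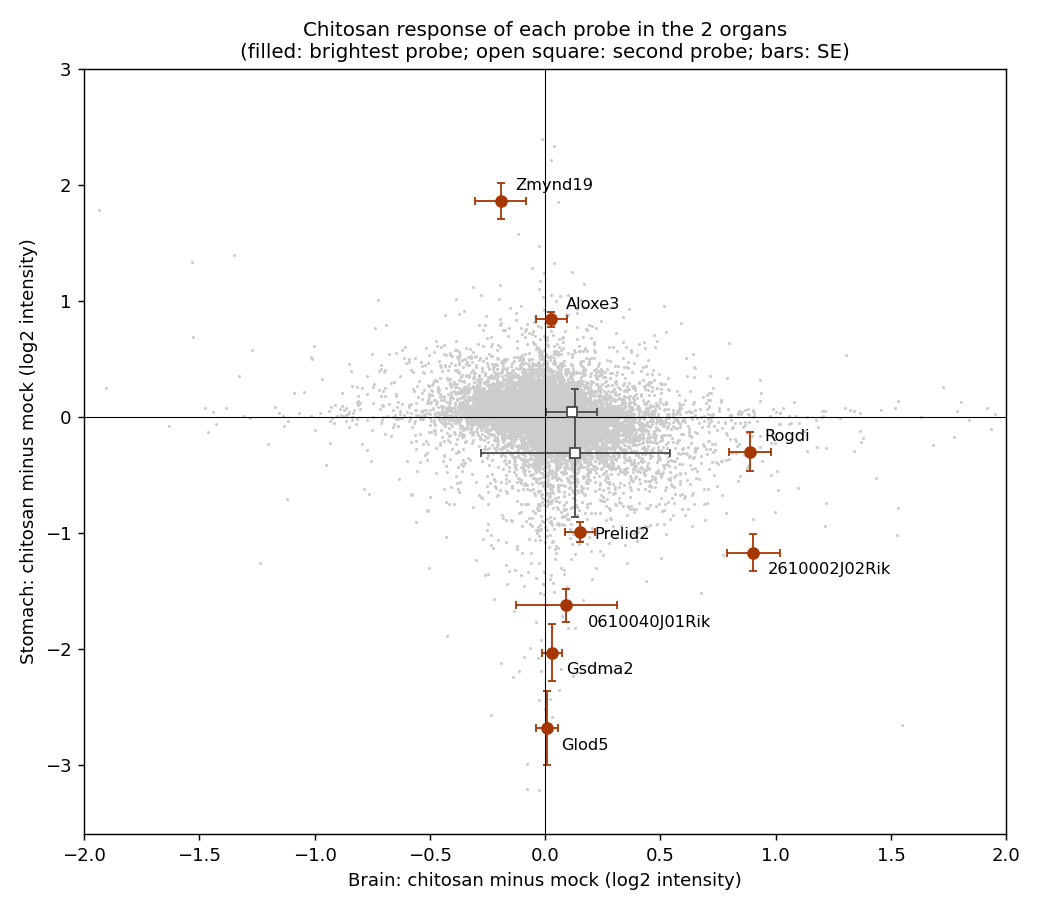
Log2 difference, chitosan minus mock, for brain (x axis) and stomach (y axis), of all probes (grey, 25 of which lie outside the axes) and of the 10 probes of the 8 genes, with SE bars. Glod5, Gsdma2 and 0610040J01Rik lie on the stomach axis, whereas 2610002J02Rik and Rogdi lie to the right of it, at 0.90 and 0.89 in the brain, and the second probes of Zmynd19 and Prelid2 (open squares) lie near the center.

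The difference between both responses, stomach minus brain, was 2.05 (SE 0.19) for the brightest probe of Zmynd19, 0.81 (SE 0.09) for Aloxe3, -2.69 (SE 0.32) for Glod5 and -2.06 (SE 0.25) for Gsdma2 on the log2 scale. It was -1.72 (SE 0.26) for 0610040J01Rik, -2.08 (SE 0.20) for 2610002J02Rik, -1.19 (SE 0.19) for Rogdi and -1.15 (SE 0.11) for Prelid2. These are the values that chose the genes. By size they ranked from 21 (Glod5) to 785 (Aloxe3) among 29922 probes, so the choice did not take the top of the list. For the second probes the difference was -0.44 (SE 0.68) for Zmynd19 and -0.07 (SE 0.12) for Prelid2.

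As the log2 scale is compressed near the background, the responses were also computed after each array's lowest intensity minus 1 had been subtracted. The directions of all 8 brightest probes in the stomach stayed. The log2 difference of Prelid2 in the stomach then became -2.28, that of 0610040J01Rik -3.03, that of 2610002J02Rik -2.20, that of Aloxe3 1.30 and that of Rogdi -0.81. In the brain that of 2610002J02Rik became 2.05 and that of Rogdi 1.98. The sizes of these dim genes therefore depend on how the background is treated. When the probes of a gene were averaged, the stomach value became 0.77 for Zmynd19 and -0.48 for Prelid2.

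The pairs of probes on the whole array give the background for this. Of 3539 genes with 2 or more probes, 37 had a brightest probe that differed 2-fold in the stomach, Zmynd19 among them. The next brightest probe moved in the same direction for 23 of the 37, and for 0 of them did it also differ 2-fold. It had clear signal on at least 1 array for 13 of the 37, of which 8 moved in the same direction. The second probe of Zmynd19 is among the 13. The median size of the log2 difference of the 37 next brightest probes was 0.07, and most of them lack clear signal.

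Beside these values, the summed intensity of gastric gland markers was lower in the chitosan stomach and that of smooth muscle markers higher. In a bulk sample, fewer cells of a type and less RNA in each cell cannot be told apart. Of 6 measured chief cell markers 3 were lower and 3 higher, with a summed intensity of 20669 to 23948 on mock and 3358 to 6726 on chitosan stomach arrays. Most of this sum is Clps, with means of 18941 and 4331, and the other 2 that were lower are Pgc (2300 and 243) and Gif (1121 and 247). Of 6 parietal cell markers 5 were lower (1676 to 2211 against 440 to 883), and of 6 mucous cell markers all 6 (4674 to 12045 against 778 to 2697). Only 3 of the 6 chief, 5 of the 6 parietal and 3 of the 6 mucous cell markers passed 2 times the lowest intensity on any stomach array. Of these, Gkn1 varied widely (log2 difference -0.26, SE 1.73). The 5 genes that were lower in the stomach have the direction of these sums there, but 2610002J02Rik was also higher in the chitosan brain. Of 12 markers of the squamous forestomach 9 were higher (26313 to 29269 on mock and 29393 to 30293 on chitosan arrays), and of 7 smooth muscle markers 6 were higher (7789 to 9666 against 14512 to 16958). The brightest probe of Zmynd19 and the probe of Aloxe3 were higher there too, with ratios of 3.66 and 1.79. The second probe of Zmynd19 did not share this direction (-0.31, SE 0.55). The forestomach sum is a poor measure beside these ratios, as a few bright genes dominate it and they differ in direction. Krt10 had stomach means of 11242 (mock) and 6440 (chitosan), and Krt13 8985 and 12574. Among dimmer markers, Lor had 918 and 1678 (log2 difference 0.88, SE 0.29) and Sprr3 1441 and 2490 (0.62, SE 0.71). No marker was at 0 on any array, but Muc5ac, Muc6, Ivl, Trp63, Dsg3 and Bhlha15, which define their cell types, stayed under 2 times the lowest intensity everywhere. The part of cell composition in the values of the 8 genes was not tested.

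The second question was how the intensities of the 8 genes differ between the stomach and the brain when the treatment is left aside. The mean of the mock and chitosan stomach was compared with the mean of the mock and chitosan brain over all 12 arrays in limma, adjusted over 29922 probes, of which 7.36% were called in either direction. In this balanced design the contrast is orthogonal to both chitosan contrasts. Its outcome is nevertheless largely fixed by the choice for the genes at background in the brain, which can only have been picked if they had signal in a stomach group, and the spread between arrays is shared. The count of called probes and the adjusted p values of the 8 genes are therefore descriptions. Nothing is read from them against the share over all probes, and they do not show that these genes belong to the stomach.

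Of the 10 probes, 6 were called as higher in the stomach, those of Zmynd19 (brightest), Aloxe3, Glod5, Gsdma2, Prelid2 (brightest) and 0610040J01Rik, where 3.67% of all probes were called higher in the stomach and 3.69% lower. Among probes brighter than the median, 6.92% were called higher. Aloxe3 was 1.26 higher on the log2 scale (SE 0.06, 95% interval 1.13 to 1.39, adjusted p = 1.85e-07), and every stomach array (67.2 or more) lay above every brain array (43.2 or less). Glod5 was 1.95 higher (SE 0.16, adjusted p = 7.08e-06) and Gsdma2 1.60 higher (SE 0.12, adjusted p = 4.45e-06). Both genes were separate between the organs on all arrays, with the lowest stomach array at 57.7 and 47.5 and the highest brain array at 46.4 and 46.0. For Gsdma2 both of these values are near the background. The brightest probe of Zmynd19 was 1.75 higher (SE 0.12, adjusted p = 2.11e-06).

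By the methods' t-test over 6 stomach and 6 brain arrays, Aloxe3 (adjusted p = 0.0024) and Zmynd19 (0.0395) stayed called, while Gsdma2 (0.0885), Glod5 (0.122) and Prelid2 (0.35) were not. With the lowest intensity minus 1 subtracted, the organ difference became 3.14 for Aloxe3, 3.36 for Glod5, 3.03 for Gsdma2, 2.83 for Zmynd19 and 1.12 for Prelid2. With the probes of a gene averaged it became 0.84 for Zmynd19 and 0.24 for Prelid2.

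For 2 further genes the call rests on the mock stomach. 0610040J01Rik was 0.65 higher in the stomach (SE 0.12, adjusted p = 0.00533), with a log2 difference between the organs of 1.51 in mock and -0.21 in chitosan mice. Prelid2 was 0.49 higher (SE 0.06, adjusted p = 1.24e-04), with 1.06 in mock and -0.08 in chitosan mice. In chitosan mice, then, neither gene was brighter in the stomach than in the brain. The call of 0610040J01Rik was lost (adjusted p = 0.0745) when the lowest intensity minus 1 was subtracted and in the methods' t-test (adjusted p = 0.488). Over the other limma settings its adjusted p ran from 0.00345 to 0.0166.

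2610002J02Rik and Rogdi were not called. 2610002J02Rik was 0.34 higher in the stomach (SE 0.10, 95% interval 0.12 to 0.56, adjusted p = 0.0716), with 1.38 in mock and -0.70 in chitosan mice. It passed without chitosan brain array 3 (adjusted p = 0.0325) and without chitosan stomach array 3 (adjusted p = 0.0444). Rogdi was -0.20 in the stomach relative to the brain (SE 0.09, 95% interval -0.40 to 0.01, adjusted p = 0.314). The second probes of Zmynd19 (-0.07, SE 0.30, 95% interval -0.72 to 0.58) and Prelid2 (-0.00, SE 0.06, 95% interval -0.13 to 0.12) were not called either. The first of these intervals is wide, and the second probe of Prelid2 has only background signal.

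**Figure D3:**
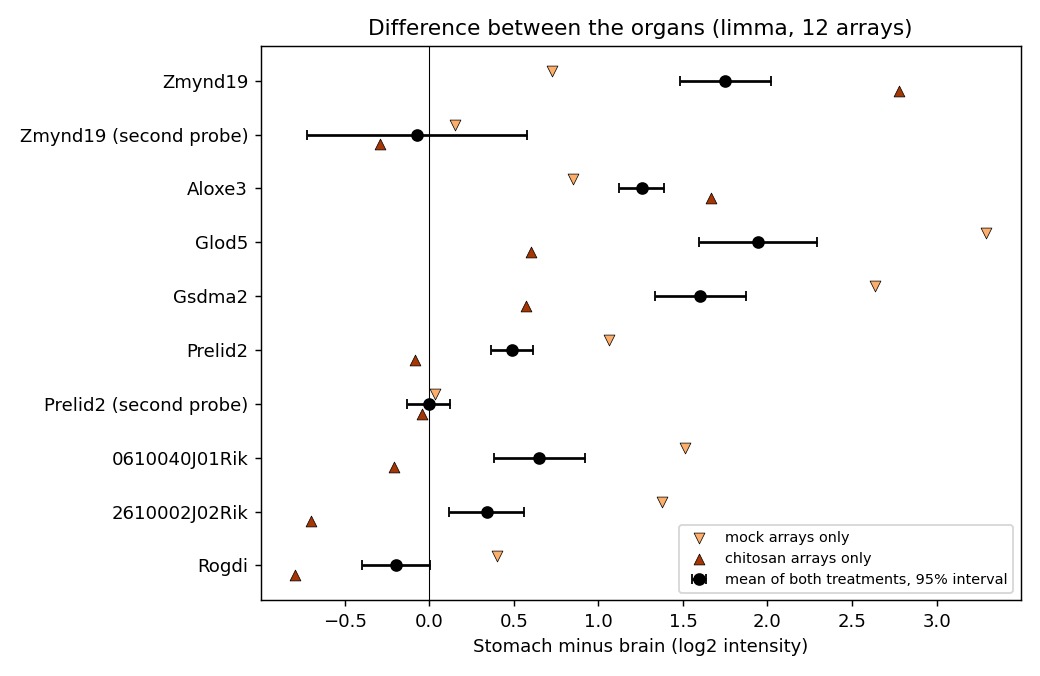
Stomach minus brain on the log2 scale for the 10 probes: black points are the mean of both treatments with the 95% interval of limma over 12 arrays, and triangles are the mock arrays alone and the chitosan arrays alone. The mean of Aloxe3 is 1.26 and both of its triangles lie to the right of 0, whereas the chitosan triangles of 2610002J02Rik and Rogdi lie to the left, at -0.70 and -0.79.

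The order of the 4 groups separates the genes further. For the brightest probe of Zmynd19 and for Aloxe3 the order was chitosan stomach, mock stomach, then both brain groups, and only the brain groups overlapped. For Glod5 and Gsdma2 it was mock stomach, chitosan stomach, then both brain groups, which again overlapped, so that a stomach excess remained with chitosan: the mean of Glod5 in the chitosan stomach was 1.54 times that in the chitosan brain, and that of Gsdma2 1.52 times. This excess is close to background, as 1 (Glod5) and 2 (Gsdma2) of the 3 chitosan stomach arrays exceeded 2 times the lowest intensity. For 2610002J02Rik the order was mock stomach, chitosan brain, chitosan stomach and mock brain, and only the last 2 overlapped. For Rogdi it was chitosan brain, mock stomach, chitosan stomach and mock brain, of which only the chitosan brain stood clear of its neighbor.

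The 8 genes fell into groups by their pattern over the arrays. Glod5 and Gsdma2 correlated at 0.99 in log2 intensity over 12 arrays, and Zmynd19 and Aloxe3 at 0.97. Prelid2 correlated with Glod5 at 0.95 and with 0610040J01Rik at 0.93. Rogdi had its highest correlation, 0.67, with 2610002J02Rik, and its lowest, -0.43, with Zmynd19. These coefficients describe genes that were chosen for a large difference between groups, on arrays that share organ and treatment, and carry no p.

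The probes most like each gene over the 12 arrays, among named probes brighter than the median, are given for each gene in turn. Those nearest to Glod5 were Spink4 (r = 0.99), a protease inhibitor gene of the gut, Pla2g12b (r = 0.99), of the phospholipase family, and Kcne2 (r = 0.99), the potassium channel subunit of parietal cells. Gsdma2 was nearest to Apoa1 (r = 0.99), the main protein of high-density lipoprotein, to Glod5 (r = 0.99) and to Agr2 (r = 0.98), a disulfide isomerase of mucous cells. With chitosan the stomach mean of Apoa1 was 112 against 504 without it, and that of Agr2 was 55.9 against 334. Prelid2 was nearest to Slc45a3, Pla2g12b and Kcne2 (r = 0.97 for each).

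0610040J01Rik was nearest to S100a8 (r = 0.97), a calgranulin of neutrophils and stressed epithelium, to Pglyrp1 (r = 0.96), a peptidoglycan recognition protein, and to Tmprss2 (r = 0.96), an epithelial serine protease. The stomach means of S100a8 were 86.9 (mock) and 45.4 (chitosan). Aloxe3 was nearest to Tpm1 (r = 0.99), a tropomyosin, to Aqp3 (r = 0.98), the water and glycerol channel of squamous epithelium, and to Flnc (r = 0.98), the filamin of muscle. Tpm1 had 174 and 410 in the mock and chitosan stomach, and Aqp3 90.5 and 148. Zmynd19 was nearest to the transcription factor gene Stat3 (r = 0.98), to Dnajc6 (r = 0.98), the auxilin that uncoats clathrin vesicles, and to Col6a3 (r = 0.97), a chain of collagen VI, but none of these reached its size: Stat3 had 80.6 and 113.

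The genes nearest to 2610002J02Rik were Tex261 (r = 0.96), Mrps5 (r = 0.93), a protein of the mitochondrial ribosome, and Cox11 (r = 0.92), a copper chaperone of cytochrome c oxidase. They share its opposite values in both organs: the means of Cox11 were 118 (mock) and 170 (chitosan) for the brain, and 234 (mock) and 101 (chitosan) for the stomach. Rogdi was nearest to Csf2ra (r = 0.96), a cytokine receptor subunit, Pldn (r = 0.96) and Prune (r = 0.95). Csf2ra had 42.7 and 71.1 in the mock and chitosan brain. All of these were named for their likeness alone.

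The last question was whether relatives of the 8 genes show the same pattern. Of 59 measured relatives in 6 families, limma with 6 arrays called 0 in the chitosan contrast of the stomach and 0 in that of the brain, as it did among all 29922 probes (0% in each). At an unadjusted p under 0.05 there were 1 and 4 of the 59, beside 5.25% and 6.5% of all probes, and limma with all 12 arrays also called 0 of the 59 in either organ (0.317% and 0.01% of all probes). The median log2 difference between the organs over all probes was -0.01.

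Genes of the 12R-lipoxygenase pathway and of skin barrier lipids were the only one of the 6 families with several members higher in the stomach, as Aloxe3 is: 7 of 17 measured relatives were called higher there, 0 lower, and 10 were not called (median 0.27). Over all probes 3.67% were called higher, and 6.92% of those brighter than the median. Alox12b, which makes the substrate of eLOX3, had stomach means of 175 (mock) and 167 (chitosan) and brain means of 59.4 and 53.0. It was 1.61 higher in the stomach (SE 0.13, adjusted p = 8.1e-06), yet its response to chitosan there was -0.06 (SE 0.16) where Aloxe3 had 0.84. Sdro, now Sdr9c7, an enzyme that oxidizes the products of eLOX3, had 156 and 194 in the mock and chitosan stomach and was 1.87 higher than in the brain (SE 0.13, adjusted p = 1.49e-06). Elovl4, which elongates very long fatty acids, had 152 and 209 and was 1.62 higher (SE 0.12, adjusted p = 2.63e-06). Alox12 was 1.81 higher (SE 0.19, adjusted p = 6.87e-05). The responses of the 17 relatives to chitosan in the stomach had a median of 0.06, with 11 higher and 6 lower.

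Among 5 other gasdermins 1 was called higher in the stomach, beside 3.67% of all probes. It was Gsdmd, the gasdermin cleaved by inflammatory caspases (0.35, SE 0.08, adjusted p = 0.0188), with stomach means of 66.4 (mock) and 64.5 (chitosan). Gsdmd exceeded 2 times the lowest intensity on only 3 of the 12 arrays, so its signal is weak too. The others (Gsdma1, Gsdmc1, Gsdmc4 and Dfna5) were not called and had means of 38.6 to 60.2 in all groups, near the background. The log2 response of Gsdma2 in the stomach, -2.03, stands beside responses of -0.07 to 0.07 for the 5 others. Genes of the Gsdma group are similar in sequence, and signal from a relative on the same probe cannot be told apart here.

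Few relatives of Prelid2, Glod5 and Zmynd19 were called for the organ difference, a share near the 7.36% over all probes. Of 4 PRELI domain genes and partners 0 were called, and Prelid1, the founder of the family, had means of 87.3 and 104 in the mock and chitosan stomach. Of 6 glyoxalase genes 1 was called, Haghl, which was lower in the stomach (-1.55, SE 0.22, adjusted p = 6.73e-04), and Glo1, the main glyoxalase, had 117 and 169 in the mock and chitosan stomach (adjusted p = 0.586 for the organ difference). Mcee, the epimerase of methylmalonyl-CoA in the same fold family, had stomach means of 345 (mock) and 187 (chitosan), a log2 difference of -0.88 (SE 0.29, adjusted p = 0.853 in limma with 6 arrays), where Glod5 had -2.68. Of 13 MYND and related genes 1 was called, Smyd3, lower in the stomach (-0.88, SE 0.10, adjusted p = 9.03e-05). Mchr1, the receptor that Zmynd19 binds, had 42.6 to 49.1 in the 4 groups, which is background.

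Of 14 genes of the RAVE complex and the V1 sector of the proton pump, 5 were called lower in the stomach and 0 higher (median -0.23). Over all probes 3.69% were called lower and 3.67% higher. Atp6v1g2, the neuronal G subunit, had brain means of 2175 (mock) and 3386 (chitosan) and stomach means of 60.6 and 53.3 (-5.57, SE 0.23, adjusted p = 7.56e-08). The others of the V1 sector were Atp6v1b2 (-2.08, adjusted p = 5.43e-05), Atp6v1d (-1.33, adjusted p = 0.0116) and Atp6v1f (-0.87, adjusted p = 0.0458). Wdr7, a rabconnectin of the same complex as Rogdi, had brain means of 118 and 101 and stomach means of 47.9 and 45.5 (-1.15, SE 0.21, adjusted p = 0.00478). The response of Wdr7 in the brain was -0.34 (SE 0.48) and that of Atp6v1g2 was 0.63 (SE 0.21), where that of Rogdi was 0.89. Of the 14 relatives, 5 had a positive and 9 a negative response in the brain (median -0.06). Dmxl1 and Dmxl2, the large subunits, had 44.8 to 49.1 in all groups.

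**Figure D4:**
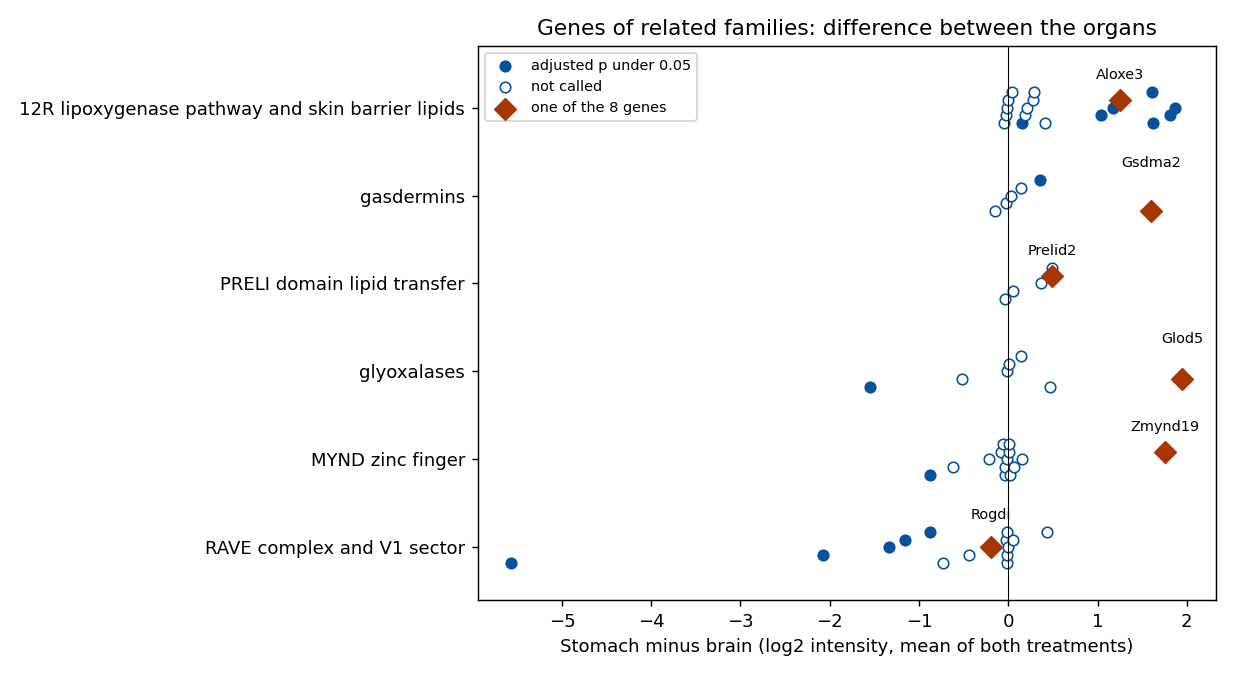
Stomach minus brain on the log2 scale (mean of both treatments) for measured genes of 6 families; filled circles passed an adjusted p of 0.05 in limma over all probes, open circles did not, and diamonds are members of the set of 8. Filled circles lie to the right for the lipoxygenase and barrier lipid genes, where Aloxe3 stands among them at 1.26, and to the left for the proton pump genes, where Atp6v1g2 is at -5.57 and Rogdi at -0.20.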

How the data were processed

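RNA of brain and stomach was labeled with Cy5 and hybridized to single-color arrays, 1 array for each of 12 samples. Per the methods of the study, the authors read spots in GenePix, took off the local background, left out controls and spots of negative signal-to-noise ratio, and normalized the rest with limma. The normalization method and version are not given in the sources used here. The deposited values are intensities on a linear scale without missing values, and depth in counts does not exist, so the 3 arrays of each group limit the precision. Per the methods the 3 arrays of a group come from separate mice, so the limma p values rest on the spread between mice within groups. The organ fit takes all 12 arrays as independent, and whether brain and stomach arrays share mice is not stated.

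Probes were named from the platform annotation (21020 with 1 symbol, 8902 with none), and older symbols of related genes were matched through RefSeq. All probes of the 8 genes were taken. The genes, the related families and the tests were chosen with earlier results of these data known. Intensities were taken to log2, and no filter was applied. In R 4.3.3, limma 3.58.1 (lmFit, and eBayes with an intensity trend) was fitted to 12 arrays in 4 groups for the organ difference and to 6 arrays for chitosan against mock. Benjamini-Hochberg adjustment ran over 29922 probes at a threshold of 0.05. The chitosan values of the 8 genes were not tested. A gene was represented by its probe with the highest mean log2 intensity over the 12 arrays. For Zmynd19 and Prelid2 this choice rests on a single stomach group, chitosan for Zmynd19 and mock for Prelid2, and so is not independent of the response. The 3 probes most like each gene were taken by Pearson correlation. Of each related family, genes called for the organ difference were named, at most 4 by brightness, and relatives of the same family at any value. Mchr1, Tgm1, Cyp4f39 and Alox5ap were named outside this rule, after their values were seen. The organ fit was tested on simulated data. The alternatives were no intensity trend, median centering, quantile normalization again, a raised floor (20th percentile), subtraction of the lowest intensity minus 1, bright probes only, replicate blocks, the methods' t-test, averaging the probes of a gene, the ratio of linear means and each array left out.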

Additional observations from a re-analysis of the deposited data

Results flagged for a closer look

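For 4 brightest probes, every chitosan array of the stomach lay on one side of its mock mean and every chitosan array of the brain on the other. The genes were picked for such a difference, and it was not tested. The log2 response in the stomach minus that in the brain was 2.05 for Zmynd19 (1.86 and -0.19), -1.15 for Prelid2 (-0.997 and 0.15), -2.08 for 2610002J02Rik (-1.17 and 0.90) and -1.19 for Rogdi (-0.30 and 0.89). For Zmynd19 and Prelid2 the brain side is a small shift at intensities under 2 times the lowest of the array. For 2610002J02Rik and Rogdi the chitosan brain arrays were all above that mark and the mock brain arrays all below. Of the 4, 2610002J02Rik was the gene whose groups stayed apart in both organs with clear signal on the higher side of each.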

How the results depend on the processing

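The count of 6 of 10 probes called for the organ difference was 2 by the methods' t-test over 6 stomach and 6 brain arrays (4 before Benjamini-Hochberg adjustment); this test leaves the chitosan response in the spread and also lacks limma's moderation and intensity trend, and their parts were not separated. It was 5 with the lowest intensity minus 1 subtracted, 6 in the other settings that kept all arrays, and 6 to 7 when single arrays were left out. The organ differences of Zmynd19, Aloxe3, Glod5, Gsdma2 and Prelid2 stayed called in all 21 limma settings, and no gene changed direction. This too is a description, since the choice largely fixed the outcome for genes at background in the brain. Of the 8 genes, those without overlap of mock and chitosan arrays numbered 7 to 8 in the stomach and 3 to 4 in the brain when single arrays were left out. They numbered 7 and 3 under the other scalings. With 1 array fewer, groups stay apart more easily, and the share over all probes is not given for those settings, so nothing is read from these counts. With the replicate number as a block the count of called probes was 6, and also 6 with treatment and number as the block. The labels do not tie numbers to mice. Deviations of same-numbered arrays, over probes brighter than 80, correlated between -0.62 and 0.70, with 5 of 12 pairs over 0.1. All 3 pairs of chitosan brain and chitosan stomach were (0.21, 0.54 and 0.70), while those of mock brain and mock stomach were -0.10, -0.40 and -0.35, so pairing is not settled. Of the recomputed chitosan responses 17 moved by more than the spread between arrays, 14 of them with the lowest intensity subtracted and 3 with probes averaged. Signal over background limits the dim genes, of which 0610040J01Rik and the brightest probe of Prelid2 exceeded 2 times the lowest intensity on the 3 mock stomach arrays alone.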

Other observations

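The barrier lipid genes around Aloxe3 had stomach signal whose response to chitosan differed in precision. The log2 response to chitosan in the stomach was 0.36 (SE 0.61) for Cyp4f39, a fatty acid hydroxylase, 0.42 (SE 0.35) for Tgm1, the transglutaminase of the cornified envelope, 0.27 (SE 0.41) for Alox12 and 0.45 (SE 0.12) for Elovl4. Their means in the mock and chitosan stomach were 87.2 and 128, 89.8 and 125, 161 and 197, and 152 and 209. Among others of the list with clear stomach signal, Sdr9c7 had 0.35 (SE 0.21), Alox12b -0.06 (SE 0.16) and Alox5ap, the partner of 5-lipoxygenase, -0.45 (SE 0.22). Of these relatives limma called 0 for chitosan in the stomach. The forestomach keratins Krt13 (8985 and 12574) and Krt14 (3920 and 4618) had higher means with chitosan, while Krt10 had a lower one (11242 and 6440).

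In the brain, Smyd1, a muscle methyltransferase of the MYND family, had means of 132 in mock and 66.0 in chitosan mice, a log2 difference of -1.01 (SE 0.21, adjusted p = 0.587 in limma with 6 arrays). Atp6v1f of the proton pump had 433 and 251 (-0.80, SE 0.16, adjusted p = 0.769 in limma). Tgm1, Cyp4f39, Alox5ap and the values of Smyd1 and Atp6v1f were singled out after they were seen.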
